A study of Mus musculus with 6 samples.

Results

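Collagens are secreted or membrane-bound proteins whose chains wind into a triple helix, and together they make up most of the fibrous matrix around cells. Fibrillar collagens assemble into the cables of sclera, cornea and vitreous. Type IV collagens form the sheet-like network of basement membranes, and FACIT collagens (fibril-associated collagens with interrupted triple helices) bind to the surface of fibrils made by others. In the eye, type II fibrils coated with type IX and nucleated by type XI chains fill the vitreous, type VIII chains build Descemet's membrane of the cornea, and type IV chains line the lens capsule, the inner retina and the bed of the retinal pigment epithelium (RPE).

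The 32 collagen genes described here were taken from a fixed list of names and sorted by textbook structure into 10 fibrillar genes, 6 type IV genes of basement membranes, 6 FACIT genes and 10 others. The others are 3 beaded filament (type VI), 2 short chain network (type VIII), 2 multiplexin (types XV and XVIII) and 3 transmembrane genes. All 32 were on the array, with 63 probe sets that name exactly 1 of them, out of 45101 probe sets and 18193 genes named singly. Where a gene had several, the one with the highest mean over the 6 arrays stood for it. Col5a3 and Col11a2 had means below 5 on the log2 scale and were not tested, which left 30 tested genes.

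RNA came from mouse embryos at embryonic day 13.5. The series sets 3 arrays of albino embryos against 3 arrays of pigmented control embryos, and each array carries RPE tissue pooled from 3 to 4 littermates. Which gene is mutated in the albino embryos and which strains were used is not stated in the labels, and no allele or agent is given that both genotypes share. The tissue label is RPE, and by the dissection protocol the neural retina, the lens, the cornea and extraocular tissue were taken off, while the sample descriptions speak of the whole eye region. All 11 RPE markers of a fixed list had means of at least 5, but so did all 9 periocular mesenchyme, 9 neural retina and 8 endothelial markers on the array. So did 11 of 12 skeletal muscle, 6 of 10 lens and 4 of 10 cartilage markers. That mean was also reached by 23591 of all 45037 probe sets that are not controls, so it does not show a tissue by itself. The pools are treated here as possibly mixed tissue. In such pools fewer cells of a type and less RNA per cell cannot be told apart.

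Values are log2 RMA expression values, in which 1 unit is a doubling, and the brightness of different probe sets does not rank their genes by amount. Array medians lay between 5.19 and 5.22. Albino arrays had upper quartiles of 7.55, 7.46 and 7.44, against 7.46, 7.38 and 7.39 for pigmented arrays, so the bright end of the distribution was slightly higher in albino arrays. Of 23591 tested probe sets, 35.6% were lower in albino pools in the deposited values, against 46.7% after cyclic loess and 49.5% after quantile normalization over the 6 arrays. Differences are albino minus pigmented, tested with limma with Benjamini-Hochberg adjustment over all 23591. Nothing passed an adjusted p under 0.05 (0 of 23591, or 0%), while 1104 stood at an unadjusted p under 0.05, or 4.68%.

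No collagen gene passed the adjusted threshold. At an unadjusted p under 0.05 stood 5 of the 30 (16.7%), against 4.68% of all tested probe sets. In albino pools 4 of the 5 were lower, namely Col11a1, Col9a3, Col8a2 and Col9a1, against 1.46% of all probe sets on that side, and Col13a1 was higher, against 3.22% on that side. The lower genes include chains of the vitreous fibril types IX and XI and of the type VIII network. The remaining type IX gene, Col9a2, had a difference of 0.16 (limma SE 0.24). With the replicate number as a block, 8 of the 30 (26.7%) stood at an unadjusted p under 0.05, against 18% of all tested probe sets, so that the background rose as well. The 3 added were Col8a1 and Col4a3, lower, and Col3a1, higher, and the smallest adjusted p with that block was 0.192.

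The sequence just upstream of the annotated starts is shown for the genes at an unadjusted p under 0.05 other than Col9a3, and for Col8a1, the partner of Col8a2 in type VIII. All sequences come from RefSeq, build GRCm38.p6, and are given 5′ to 3′ on the gene's own strand. Only bases before the start of the annotated gene are printed, except for the second Col9a1 start, which lies inside the gene. Capitals mark promoter motifs, searched on both strands. One is the core of a GC box, which reads GGGCGG. Another is that of the CCAAT box, written as its name says and as its reverse complement where it lies on the other strand. The last is that of the TATA box, which reads TATAAA. The windows are chr16:57754738-57754987 (minus strand) for Col8a1, chr4:126286544-126286793 (plus) for Col8a2, chr1:24177360-24177588 and chr1:24194953-24195202 (plus) for the first and second starts of Col9a1, chr3:114030290-114030478 (plus) for Col11a1 and chr10:61979207-61979358 (minus) for Col13a1.
Col8a1: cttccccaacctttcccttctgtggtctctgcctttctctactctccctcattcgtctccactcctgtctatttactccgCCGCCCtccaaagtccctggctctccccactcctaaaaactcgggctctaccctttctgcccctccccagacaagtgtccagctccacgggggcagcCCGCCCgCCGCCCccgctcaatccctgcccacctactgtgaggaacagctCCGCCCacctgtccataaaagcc
Col8a2: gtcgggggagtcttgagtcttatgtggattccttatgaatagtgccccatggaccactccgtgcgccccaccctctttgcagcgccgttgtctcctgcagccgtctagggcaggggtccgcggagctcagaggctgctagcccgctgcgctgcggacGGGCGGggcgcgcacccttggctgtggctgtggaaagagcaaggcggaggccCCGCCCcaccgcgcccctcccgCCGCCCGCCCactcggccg
Col9a1, first start: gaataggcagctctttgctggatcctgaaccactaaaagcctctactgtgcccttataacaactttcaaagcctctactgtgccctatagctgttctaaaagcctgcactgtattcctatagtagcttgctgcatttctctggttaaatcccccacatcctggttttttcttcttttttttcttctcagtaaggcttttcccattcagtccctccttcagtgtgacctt
Col9a1, second start: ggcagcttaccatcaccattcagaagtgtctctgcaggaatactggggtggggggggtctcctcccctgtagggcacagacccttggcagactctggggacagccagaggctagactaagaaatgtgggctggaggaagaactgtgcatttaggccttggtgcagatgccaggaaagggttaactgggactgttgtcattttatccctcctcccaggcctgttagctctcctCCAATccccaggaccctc
Col11a1: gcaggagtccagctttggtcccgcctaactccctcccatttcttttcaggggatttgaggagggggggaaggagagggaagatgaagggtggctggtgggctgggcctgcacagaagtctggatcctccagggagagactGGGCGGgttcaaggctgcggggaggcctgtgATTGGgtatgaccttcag
Col13a1: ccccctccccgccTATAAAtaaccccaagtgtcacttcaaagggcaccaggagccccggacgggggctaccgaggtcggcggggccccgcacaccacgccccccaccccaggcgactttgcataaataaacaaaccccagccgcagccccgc

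The type VIII genes both carried 4 GC box cores in these 250 bases, some of them overlapping in Col8a2, and neither the CCAAT nor the TATA core. Both windows of Col9a1 lacked the GC box core. Its starts lie 17593 bases apart, and a shorter chain made from a downstream start is known from the eye of chick and mouse. Neither Col9a1 probe set was assigned to one of the starts. Over all 32851 promoter windows, taken as the 250 bases before each start, 32.7% held the GC box core, 33.8% the CCAAT core and 12.4% the TATA core, and the median GC content was 52.4%. The 28 windows of 25 collagen genes held them in 18, 10 and 3 cases, or 64.3%, 35.7% and 10.7%, with a median GC content of 60.6%. A match to these letters is a description and not a site of binding.

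**Figure D1:**
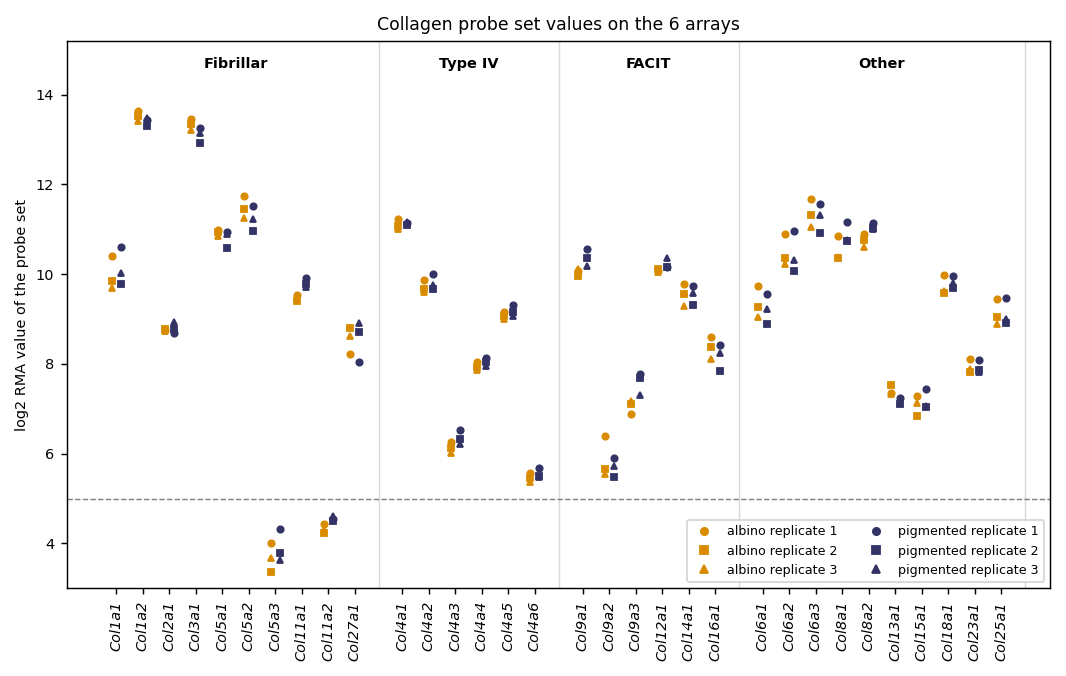
Log2 RMA value of 1 probe set per gene (vertical axis) for the 32 collagen genes, by class, with a point for each array, albino to the left of pigmented. The dashed line marks the mean of 5 below which Col5a3 and Col11a2 lie, and in most genes the genotypes overlap.

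Among the fibrillar genes, 5 of 8 tested were higher in albino pools and 3 lower, with a median difference of 0.06 and a range of -0.34 to 0.25. After cyclic loess or quantile normalization 4 were higher and 4 lower. Over all tested probe sets the median difference was 0.05 and 15183 of 23591 were higher. Col11a1, whose chain nucleates type II fibrils in cartilage and vitreous, had 9.53, 9.39 and 9.47 on the albino arrays, against 9.92, 9.78 and 9.72 on the pigmented arrays. All albino arrays lay below all pigmented arrays. The means were 9.46 ± 0.07 and 9.81 ± 0.10 (SD, n = 3 each), a difference of -0.34 (limma SE 0.10, unadjusted p = 0.0105, adjusted p = 0.871). Its other probe set gave -0.16. The unadjusted p stayed between 0.0137 and 0.0473 in limma as each array was left out in turn.

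Col2a1, the gene of the type II chain that is the main vitreous and cartilage fibril collagen, had 8.75, 8.77 and 8.74 in albino pools, against 8.69, 8.77 and 8.93 in pigmented pools. The groups overlapped, and the difference was -0.04 (95% confidence interval -0.28 to 0.19). Of the tested genes of types IX and XI, whose chains join the same fibril, Col11a1 differed by -0.34, Col9a1 by -0.32 and Col9a3 by -0.53, but Col9a2 by 0.16. The other tested probe sets of Col11a1, Col9a1 and Col9a3 gave smaller differences of -0.16, -0.18 and -0.09. No test of Col2a1 against those genes was made. Col27a1, a fibrillar gene of cartilage and other developing tissue, had 8.22, 8.81 and 8.63 in albino pools, against 8.04, 8.71 and 8.90 in pigmented pools. The replicate 1 array was the lowest of each genotype, and the difference of 0.0033 was small beside the SE of 0.26 (limma).

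The type I, III and V genes build fibrils of connective tissue. In the deposited values none of them stood at an unadjusted limma p under 0.05 without block or weights. Col3a1 did after cyclic loess and with array weights. Col3a1, of the type III fibrils found with type I in extensible tissue, had 13.46, 13.34 and 13.20 in albino pools, against 13.25, 12.92 and 13.14 in pigmented pools. Its difference of 0.23 (limma SE 0.12, unadjusted p = 0.109) was positive between arrays of each replicate number, at 0.21, 0.42 and 0.06, while the groups overlapped. With the replicate block its unadjusted limma p was 0.0421 and its adjusted p 0.264. Col5a2, of type V, which controls how type I fibrils start and how thick they grow, had 11.74, 11.46 and 11.26 in albino pools, against 11.52, 10.95 and 11.23 in pigmented pools. That difference was 0.25 (limma SE 0.19, unadjusted p = 0.217), and 0.11 without pigmented replicate 2, the lowest of the 6 arrays. The partner gene Col5a1 differed by 0.11 (limma SE 0.12), or by 0.0033 without pigmented replicate 2.

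The genes of the type I chains had differences of opposite sign, both small beside their errors, and no test between them was made. Col1a2 had 13.63, 13.52 and 13.41 in albino pools, against 13.43, 13.31 and 13.48 in pigmented pools, a difference of 0.11 (limma SE 0.10). Col1a1 had 10.41, 9.84 and 9.70 in albino pools, against 10.60, 9.77 and 10.02 in pigmented pools, a difference of -0.15 (limma SE 0.27), and its other probe set gave -0.0067. The replicate 1 arrays of Col1a1 stood well above the other 4, the groups overlapped in both genes, and the sign for Col1a1 turned without pigmented replicate 1 (0.09). The 2 untested fibrillar genes were dim everywhere. Col5a3 had 4.0, 3.37 and 3.67 in albino pools and 4.33, 3.79 and 3.62 in pigmented pools, and Col11a2, a partner chain of Col11a1, had 4.43, 4.23 and 4.29 in albino pools and 4.54, 4.51 and 4.60 in pigmented pools. On either side of the limit of 5, Col11a2 had the nearest mean below it (4.43) and Col4a6 the nearest above it (5.51).

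All 6 type IV genes were lower in albino pools, by 0.04 to 0.23, with a median difference of -0.10, while 35.6% of all tested probe sets were lower. The count of 6 of 6 held after median centring, cyclic loess and quantile normalization, but 1 of the 6, Col4a6, turned to 0.033 when the probe sets of a gene were averaged. With 1 probe set per gene in the deposited values of all 6 arrays, without block or weights, none stood at an unadjusted limma p under 0.05. Col4a3 did after cyclic loess and quantile normalization, with array weights and without both replicate 1 arrays. Col4a4 did with its probe sets averaged. In no type IV gene did the groups separate in the deposited values. The arrays of each replicate number gave a lower albino value in 4 of the 6, Col4a3, Col4a4, Col4a5 and Col4a6. Among all tested probe sets 13.3% did so.

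Col4a1, one of the pair of chains found in almost every basement membrane, had 11.22, 11.07 and 11.0 in albino pools, against 11.14, 11.10 and 11.17 in pigmented pools. Its groups overlapped, with a difference of -0.04 (95% confidence interval -0.27 to 0.19), and the sign turned without albino replicate 3 (0.0083). Col4a2, the other chain of that pair, had 9.88, 9.67 and 9.61 in albino pools, against 10.00, 9.67 and 9.76 in pigmented pools, a difference of -0.09 (95% confidence interval -0.40 to 0.22). Without pigmented replicate 1 it was 0.0050. The genes Col4a3, Col4a4 and Col4a5 encode the chains of a stiffer network known from the glomerulus and from eye basement membranes. Col4a3 had 6.25, 6.12 and 6.02 in albino pools, against 6.53, 6.33 and 6.22 in pigmented pools. All albino arrays but replicate 1 lay below all pigmented arrays, and the difference was -0.23 (limma SE 0.12, unadjusted p = 0.0954; with the replicate block, unadjusted p = 0.00936, adjusted p = 0.204).

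Col4a4 and Col4a5 differed by -0.10 each (limma SE 0.10 for both). The second tested Col4a4 probe set gave -0.25 and the second Col4a5 probe set 0.09, which is of opposite sign. Col4a6, whose chain joins Col4a5 chains in smooth muscle and epithelial basement membranes, had 5.57, 5.45 and 5.36 in albino pools, against 5.69, 5.51 and 5.47 in pigmented pools, a difference of -0.10 (limma SE 0.11). Its groups overlapped, and its second probe set gave 0.16.

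The FACIT genes split into 3 lower and 3 higher, with a median difference of -0.07, or 4 lower and 2 higher after cyclic loess and quantile normalization. Among the 30 tested genes the largest difference in size was that of the type IX gene Col9a3. Col9a3 had 6.89, 7.11 and 7.17 in albino pools, against 7.77, 7.69 and 7.30 in pigmented pools. No array of one genotype reached the other, although albino replicate 3 and pigmented replicate 3 lay 0.13 apart and the replicate 1 arrays 0.88. The means were 7.06 ± 0.15 and 7.59 ± 0.25 (SD, n = 3 each), and the difference of -0.53 corresponds to a level 1.44-fold higher in pigmented pools (limma SE 0.15, unadjusted p = 0.0116, adjusted p = 0.877). Its other tested probe set gave -0.09 only. The unadjusted limma p stayed between 0.00272 and 0.0420 as each array was left out, but without both replicate 1 arrays Col9a3 did not reach an unadjusted p under 0.05 (difference -0.355).

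Col9a1 had 10.07, 9.95 and 10.12 in albino pools, against 10.56, 10.36 and 10.19 in pigmented pools. The groups did not overlap, and pigmented replicate 3 was the one close to the albino arrays. The means were 10.05 ± 0.09 and 10.37 ± 0.19 (SD, n = 3 each), a difference of -0.32 (limma SE 0.12, unadjusted p = 0.0344, adjusted p = 0.999), and its other probe set gave -0.18. An unadjusted p under 0.05 was reached in 1 of the 6 fits that leave out 1 array, the one without pigmented replicate 3 (-0.41). Col9a1 was also above that limit with its probe sets averaged, with the mean of Y-linked genes as a covariate and without both replicate 1 arrays. Col9a2, the gene of the remaining type IX chain, had 6.4, 5.65 and 5.54 in albino pools, against 5.91, 5.49 and 5.72 in pigmented pools. Its difference of 0.16 (limma SE 0.24) was set by albino replicate 1, and became -0.11 without it.

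The remaining FACIT genes code for chains that decorate type I fibrils or lie in other matrices. Col12a1 had 10.06, 10.11 and 10.05 in albino pools, against 10.15, 10.16 and 10.37 in pigmented pools. The groups just separated, but the difference of -0.15 (limma SE 0.10) had an unadjusted p = 0.165. Col16a1 had 8.61, 8.37 and 8.10 in albino pools, against 8.41, 7.84 and 8.25 in pigmented pools, a difference of 0.19 (limma SE 0.19) that became 0.03 without pigmented replicate 2. Col14a1 differed by 0.01 (95% confidence interval -0.39 to 0.41).

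The type VIII genes stood lower in albino pools together. Col8a2 had 10.90, 10.77 and 10.61 in albino pools, against 11.14, 11.02 and 11.0 in pigmented pools, with no overlap. Its means were 10.76 ± 0.15 and 11.05 ± 0.08 (SD, n = 3 each), a difference of -0.29 (limma SE 0.11, unadjusted p = 0.0321, adjusted p = 0.999). An unadjusted p under 0.05 was kept in 1 of the 6 fits that leave out 1 array, the one without albino replicate 1 (-0.36). Col8a1 had 10.85, 10.36 and 10.38 in albino pools, against 11.16, 10.74 and 10.76 in pigmented pools. The groups overlapped because albino replicate 1 stood above pigmented replicates 2 and 3, yet the arrays of each number differed by nearly the same amount, -0.31, -0.38 and -0.38.

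For Col8a1 the difference of -0.36 had a limma SE of 0.18 and an unadjusted p = 0.0937 without the replicate block, and an SE of 0.056, an unadjusted p = 0.00136 and an adjusted p = 0.192 with it. Its other probe sets disagreed, at -0.20 and 0.14. With the mean over all 3 probe sets the difference was -0.14.

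The type VI genes, whose chains form beaded filaments in connective tissue and around muscle, were all slightly higher, with differences of 0.12 for Col6a1, 0.05 for Col6a2 and 0.09 for Col6a3 and limma SEs of 0.23, 0.28 and 0.22. Col6a3 had 11.68, 11.32 and 11.06 in albino pools, against 11.56, 10.92 and 11.32 in pigmented pools. The genotypes overlapped throughout, and all 3 genes turned lower without albino replicate 1 (-0.07, -0.16 and -0.08), without pigmented replicate 2 (-0.04, -0.145 and -0.09) and with the mean of Y-linked genes as a covariate (-0.13, -0.28 and -0.16).

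Of the transmembrane collagens, Col13a1, known from the neuromuscular junction and other adhesion sites, had 7.35, 7.54 and 7.33 in albino pools, against 7.23, 7.10 and 7.15 in pigmented pools. All albino arrays lay above all pigmented arrays. The means were 7.41 ± 0.12 and 7.16 ± 0.07 (SD, n = 3 each), a difference of 0.25 (limma SE 0.10, unadjusted p = 0.0442, adjusted p = 0.999), and 1 of the 6 fits that leave out 1 array kept an unadjusted p under 0.05. Without the filter on dim probe sets, after cyclic loess or quantile normalization and with the mean of Y-linked genes as a covariate it was above that limit. Col25a1, whose chain is made by muscle and is needed for motor axons to innervate it, had 9.44, 9.04 and 8.89 in albino pools, against 9.46, 8.92 and 9.0 in pigmented pools, a difference of -0.0033 (95% confidence interval -0.48 to 0.47). The replicate 1 arrays were high in both genotypes. Col23a1 differed by 0.01 (limma SE 0.12).

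Skeletal muscle markers, a list that includes Myog, Myf5 and Actc1, were higher in albino pools in 11 of 11 tested members. Each stood at an unadjusted p under 0.05 in limma, and none passed the adjusted threshold. Of all 23591 tested probe sets, 15183 were higher, and 3.22% were higher at an unadjusted p under 0.05. Their list means were 9.08, 9.15 and 8.44 on the albino arrays, against 7.34, 7.02 and 7.91 on the pigmented arrays, with Myf6 the one member below a mean of 5. The median difference of the tested members was 1.58. The part of muscle in the Col13a1 difference was not tested.

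The multiplexins are basement membrane zone collagens, and Col18a1 is the gene from whose product endostatin is cut. Col18a1 had 9.97, 9.57 and 9.63 in albino pools, against 9.95, 9.70 and 9.80 in pigmented pools, a difference of -0.09 (95% confidence interval -0.42 to 0.24). Col15a1 had 7.29, 6.83 and 7.12 in albino pools, against 7.44, 7.05 and 7.07 in pigmented pools, a difference of -0.11 (95% confidence interval -0.50 to 0.29). Both overlapped between the genotypes.

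**Figure D2:**
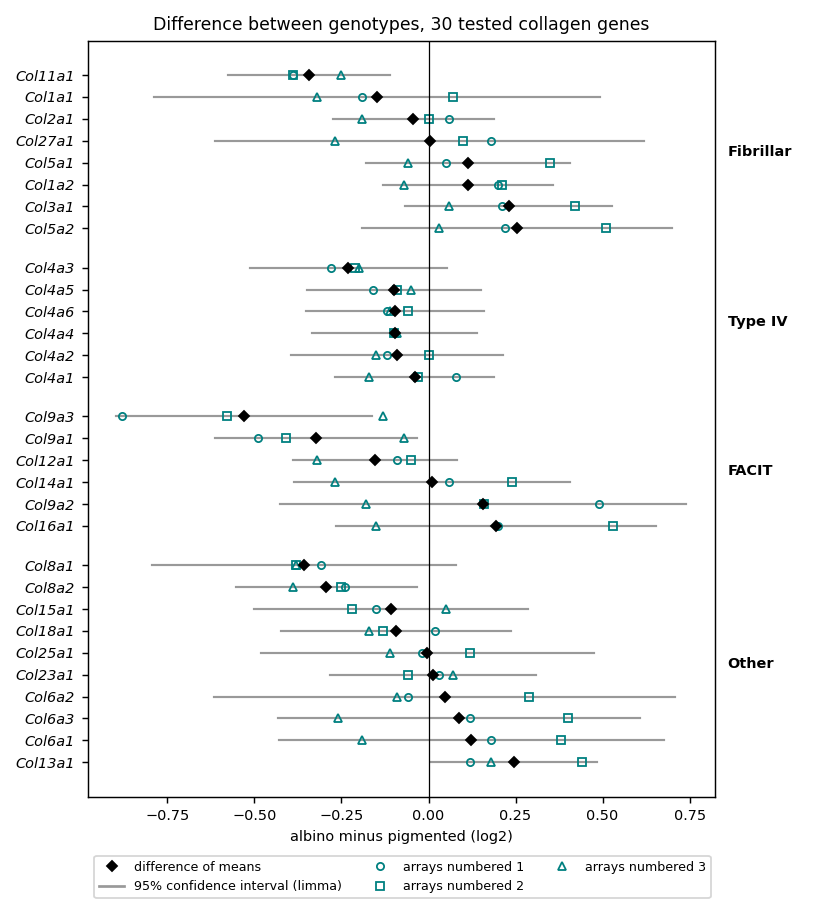
Difference in log2 RMA value, albino minus pigmented (horizontal axis), for the 30 tested collagen genes by class. Diamonds are differences of means with 95% confidence intervals from limma and open symbols the differences between arrays of the same replicate number. All 6 type IV diamonds lie left of 0, and the intervals of Col11a1, Col9a3, Col9a1, Col8a2 and Col13a1 leave out 0.

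Over the 30 tested genes, 17 were lower and 13 higher in albino pools, with a median difference of -0.04 against 0.05 for all tested probe sets. After cyclic loess or quantile normalization 20 were lower and 10 higher. With the mean of Y-linked genes as a covariate, which stands for the sex makeup of the pools, 25 were lower and 5 higher, beside 50.9% lower among all tested probe sets. The genotypes did not overlap in 6 genes. The albino arrays were all lower in 5 of them, Col8a2, Col9a1, Col9a3, Col11a1 and Col12a1, where 3.44% of all tested probe sets showed this, and all higher in Col13a1, where 7.39% did. Within arrays of the same number, 10 genes were lower in albino each time and 3 were higher each time, Col3a1, Col5a2 and Col13a1, beside 13.3% and 29.1% of all tested probe sets.

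Markers of neural retina, ciliary margin, RPE and lens had mostly negative differences. Of these 1, that of the RPE marker Ttr, stood at an unadjusted p under 0.05 in limma, and none passed the adjusted threshold. Other lists went differently. Surface ectoderm markers were higher in 5 and lower in 1, macrophage markers higher in 5 and lower in 2. Erythroid markers were higher in 3 and lower in 1, and both tested bone markers were lower. At that limit stood 1 surface ectoderm and 2 macrophage markers, all higher. Among all tested probe sets 35.6% were lower. At an unadjusted p under 0.05 in limma stood 4.68% of them, and 18% with the replicate block. Neural retina markers were below their pigmented mean in 8 of 9 tested members, 7 of the 9 at an unadjusted p under 0.05 with the replicate block, with list means of 6.91, 7.24 and 7.55 in albino pools and 7.24, 7.53 and 7.81 in pigmented pools. All 4 tested ciliary margin markers had negative differences, 3 of them at that limit with the block, with list means over 5 members of 6.4, 6.64 and 6.89 in albino pools and 6.70, 6.93 and 6.99 in pigmented pools, Zic2 being below a mean of 5. RPE markers had negative differences in 11 of 11, 3 of them at that limit with the block, with list means of 9.61 to 9.82 in albino pools and 9.76 to 10.06 in pigmented pools. The 6 tested lens markers had negative differences, 1 of them at that limit with the block, and the list means ranged from 4.69 to 6.34 in albino pools and from 6.11 to 6.34 in pigmented pools, the low value being albino replicate 3, where the crystallin gene Cryaa had 4.48, with 8.12 and 8.51 in albino replicates 1 and 2 and 8.03, 8.24 and 8.71 in pigmented pools. Crygs, Mip, Bfsp1 and Foxe3 had means below 5. The part of these tissues in the differences of the type VIII, IX and XI genes was not tested.

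Cartilage also makes types II, IX and XI. Of 10 cartilage markers on the array 4 were tested. In albino pools Cnmd and Hapln1 were higher by 0.28 and 0.23 and Sox6 and Sox9 lower by 0.13 and 0.05. None stood at an unadjusted p under 0.05 in limma. Cnmd alone did with the replicate block, where 18% of all tested probe sets did. Sox9 had 7.68, 8.0 and 8.04 in albino pools, against 7.59, 8.36 and 7.93 in pigmented pools, and Hapln1 had 7.88, 7.03 and 6.90 in albino pools, against 7.25, 7.03 and 6.85 in pigmented pools. The other 6 were below a mean of 5, among them the aggrecan gene Acan, at 3.52, 3.47 and 3.72 in albino pools and 3.96, 3.70 and 3.75 in pigmented pools, and the matrilin gene Matn1, at 2.49 to 2.74 in albino pools and 2.48 to 2.59 in pigmented pools. The cartilage list means were 4.97 to 5.32 in albino pools and 5.01 to 5.29 in pigmented pools, and the part of cartilage in the collagen differences was not tested. Endothelial markers, a source of type IV chains, had list means of 7.98 to 8.10 in albino pools and 8.03 to 8.13 in pigmented pools. Periocular mesenchyme, a main source of interstitial collagen around the eye, had list means of 9.43 to 9.52 in albino pools and 9.40 to 9.56 in pigmented pools. Its members went both ways, with 6 of 9 lower and 3 higher and differences from -0.25 to 0.78. In limma 2 of the 9 stood at an unadjusted p under 0.05, Alx1 (0.78) and Eya2 (0.31), beside 4.68% of all tested probe sets. With the replicate block 5 did, beside 18%. The part of this tissue in the collagen differences was not tested.

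**Figure D3:**
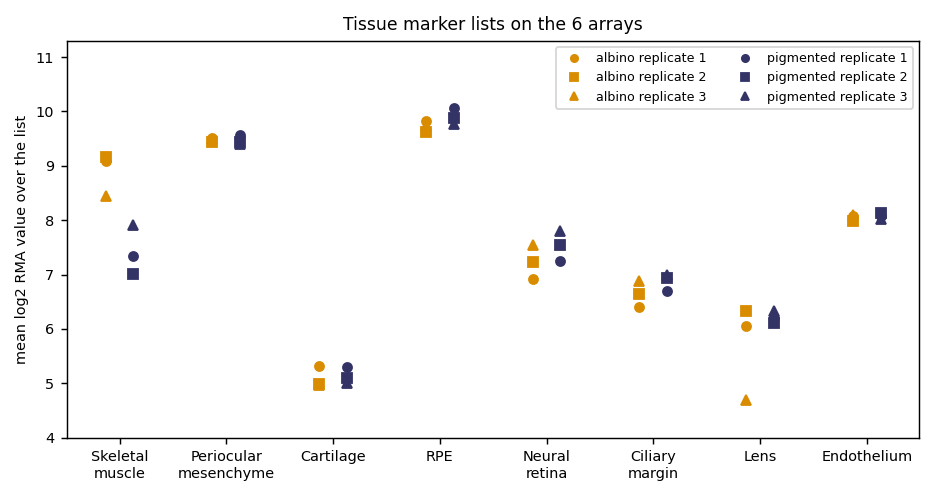
Mean log2 RMA value over each marker list (vertical axis) on every array, albino to the left of pigmented. Muscle means are separated by genotype (8.44 to 9.15 in albino pools, 7.02 to 7.91 in pigmented pools), and the replicate 1 array has the lowest neural retina and ciliary margin mean of each genotype.

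The replicate 1 arrays stood apart in many collagen genes. In 22 of 30 tested genes (73.3%) the replicate 1 array was the highest of its genotype in both genotypes, against 52.4% of all tested probe sets, and in 1, Col27a1, it was the lowest in both, against 19.1%. The replicate 1 array exceeded the mean of the other 2 by at least 0.3 in both genotypes in 10 genes (33.3%), against 17.8% of all tested probe sets. These were Col1a1, Col5a2, Col6a1, Col6a2, Col6a3, Col8a1, Col9a2, Col15a1, Col16a1 and Col25a1. The excess of Col1a1 was 0.64 in albino and 0.705 in pigmented pools, and that of Col6a2 0.615 in albino and 0.775 in pigmented pools.

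Col27a1 ran the other way, with the replicate 1 array 0.50 lower than the others in albino and 0.765 lower in pigmented pools. The type IV genes shared a small excess in replicate 1, with medians of 0.1725 in albino and 0.205 in pigmented pools, and 0 of 6 reached 0.3 in both. Neural retina list means were lowest on the replicate 1 arrays of both genotypes. What the replicate 1 arrays share is not given in the labels, and the part of neural retina content in these differences was not tested.

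**Figure D4:**
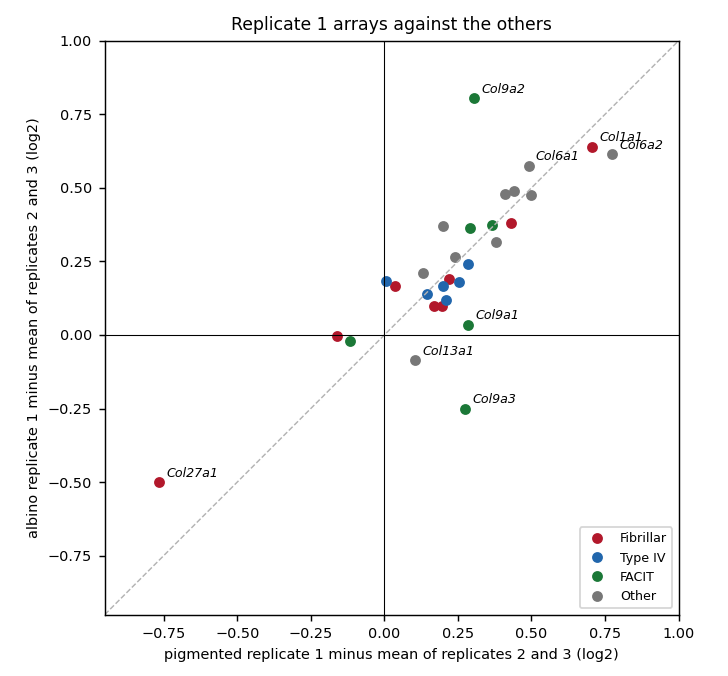
Replicate 1 array minus the mean of replicates 2 and 3 (log2), in pigmented pools (horizontal axis) and albino pools (vertical axis), with a point for each of the 30 tested collagen genes coloured by class. Most points lie above 0 on both axes near the dashed line of equal values, Col6a2 and Col1a1 lie at the top right, and Col27a1 lies at -0.50 for albino and -0.765 for pigmented pools.

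The spread between arrays of a genotype was close to that of other genes. The median pooled SD was 0.15 for the 30 collagen genes and 0.17 for all tested probe sets, with a range of 0.083 for Col4a1 to 0.42 for Col6a2.

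Several members are neighbours in the genome, with positions given for build GRCm38.p6. The 32 genes lie on 13 chromosomes, and 5 pairs have no other protein-coding gene start between them in the gene table. Col4a1 and Col4a2 (chr8:11198423-11449287), Col4a3 and Col4a4 (chr1:82448419-82722059) and Col4a5 and Col4a6 (chrX:141165403-141689236) are divergent pairs known to share a promoter region. The annotated genes of the first of these pairs overlap by 85 bases and those of the second by 114 bases, and the X-linked pair lies 1274 bases apart. The differences within these pairs were -0.04 and -0.09, -0.23 and -0.10, and -0.10 and -0.10. Col3a1 and Col5a2 (chr1:45311538-45503282, 24624 bases apart) differed by 0.23 and 0.25, and Col6a2 and Col6a1 (chr10:76595756-76726044, 85161 bases apart) by 0.05 and 0.12. The members of each pair thus had the same sign with 1 probe set per gene in the deposited values of all 6 arrays. No such difference passed the adjusted threshold. With probe sets averaged Col4a5 was -0.0033 and Col4a6 0.033. Col4a1 alone of its pair turned without albino replicate 3 (0.0083), and Col4a2 alone without pigmented replicate 1 (0.005). No rate of equal signs among other neighbouring genes was set beside this.

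Genes that process, bind or cut collagen were taken from lists of names. For the enzymes and chaperones of collagen processing, 27 of 31 names were on the array and 25 were tested, of which 23 were higher and 2 lower in albino pools, with a median difference of 0.13, where 15183 of the 23591 tested probe sets were higher, with a median of 0.05. After quantile normalization 18 were higher and 7 lower, with a median of 0.09, and with the covariate of Y-linked genes 16 were higher and 9 lower, with a median of 0.05. None of the 25 stood at an unadjusted p under 0.05 in limma, and 6 did with the replicate block, beside 18% of all tested probe sets. P3h3, of the prolyl 3-hydroxylases that modify collagen chains, and P3h4, a related gene, differed by 0.24 each (limma SE 0.10 and 0.11, unadjusted p = 0.0524 and 0.0643, adjusted p = 0.999 for both). P3h3 had 9.09, 9.14 and 8.92 in albino pools, against 8.75, 8.76 and 8.91 in pigmented pools, with the groups barely apart.

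Of 5 tested collagen receptors 3 were higher and 2 lower, with a median of 0.02, or 1 higher and 4 lower after cyclic loess and quantile normalization. Ddr1, a receptor tyrosine kinase that binds collagen, had 10.85, 10.87 and 10.68 in albino pools, against 11.07, 11.01 and 10.88 in pigmented pools. The groups just separated, with a difference of -0.19 (limma SE 0.10, unadjusted p = 0.113). Itga1, an integrin subunit gene for collagen binding, differed by 0.17 (limma SE 0.21). No receptor gene stood at an unadjusted p under 0.05 without the replicate block, and 2 of the 5 did with it, beside 18% of all tested probe sets. These were Ddr1 (limma, unadjusted p = 0.0207), lower on each pair of arrays, and Itga1 (limma, unadjusted p = 0.0425), higher on each.

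Of 8 tested genes of collagen breakdown 7 were higher and 1 lower, with a median of 0.145, and 1 stood at an unadjusted p under 0.05, beside 4.68% of all tested probe sets, or 3 with the replicate block, beside 18%. The 1 was Mmp16, a membrane-bound metalloproteinase gene, with 7.69, 7.51 and 7.19 in albino pools, against 7.15, 6.83 and 7.10 in pigmented pools. The groups did not overlap, and the difference was 0.44 (limma SE 0.16, unadjusted p = 0.0304, adjusted p = 0.999). Mmp2, which codes for a gelatinase, differed by 0.25 (limma SE 0.11, unadjusted p = 0.0669).

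Of 14 tested collagen-binding proteoglycans and partners 11 were higher and 3 lower, with a median of 0.17, or 7 higher and 7 lower with a median of 0.03 under the covariate of Y-linked genes. At an unadjusted p under 0.05 stood 4 of the 14, beside 4.68% of all tested probe sets, and 6 did with the replicate block, beside 18%. The 4 were Matn2, Tgfbi and Epyc, higher, and Matn4, lower, of which Epyc (0.61) and Matn4 (-0.34) are named after their values were seen. Matn2, which codes for a matrilin of connective tissue, had 7.0, 7.40 and 7.17 in albino pools, against 6.28, 6.47 and 6.72 in pigmented pools. Its groups were well apart, with a difference of 0.70 (limma SE 0.16, unadjusted p = 0.00329, adjusted p = 0.647). Tgfbi, a collagen-binding matrix gene of the cornea, differed by 0.30 (limma SE 0.11, unadjusted p = 0.0314, adjusted p = 0.999). Across these lists 0 genes passed the adjusted threshold. The same albino pools had skeletal muscle list means of 8.44 to 9.15, against 7.02 to 7.91 in pigmented pools, and the part of muscle in these differences was not tested.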

How the data were processed

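Expression was measured on 6 Affymetrix 3′ arrays. Per the submitters' processing notes, the authors used Affymetrix Expression Console 1.1 and RMA, and the deposited values are log2 expression values per probe set with 2 decimals. Nothing read here states if the 6 arrays went through RMA together. Labelled cRNA was made from 100 ng of total RNA, per the labels' protocols.

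The platform annotation gave the gene names, and in it 34945 probe sets name 1 gene, 932 several and 9160 none; 34741 of those with 1 gene were found by Entrez ID among the RefSeq genes of GRCm38.p6. Control probe sets (64) and those with a mean below 5 were left out. The two-sided test of albino minus pigmented used lmFit and eBayes of limma 3.58.1 (R 4.3.3), adjusted over 23591 probe sets, and the script was tested on simulated data. The labels number the pools as biological replicates, and having 3 a genotype limits the precision.

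The members and lists were chosen with earlier results of these data known. Array values are given for the 5 genes with the smallest p in each direction, for the brightest and dimmest of each class, for Col1a1, Col2a1, Col4a1, Col4a2, Col9a1, Col18a1 and Col25a1 and for genes below 5, and from each collagen pathway list the 2 genes with the smallest p are named. Values of others were chosen after they were seen. Bone, surface ectoderm, macrophage and erythroid marker lists were also computed. Their list means were 4.73 to 4.88, 8.04 to 8.62, 7.07 to 7.15 and 9.39 to 9.85 in albino pools and 4.95 to 5.00, 8.13 to 8.29, 6.92 to 7.01 and 9.29 to 9.67 in pigmented pools.

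Replicate numbers were checked as pairs. Deviations from the genotype means correlated at 0.863, 0.687 and 0.448 across probe sets between arrays numbered 1, 2 and 3. On these correlations alone the numbers were taken as pairs. Both replicate 1 arrays and pigmented replicate 2 correlated best with the array of their own number in the other genotype. Albino replicate 2 and both replicate 3 arrays did not. Deviations in a genotype sum to 0, so an offset shared by the replicate 1 arrays also makes the others correlate. The pairs numbered 2 and 3 are thus not settled, and results with the block depend on them. Results are given without the block unless stated. Alternatives were the block, scalings, filters, probe set choice, array weights, the mean of 4 Y-linked genes as a covariate and leaving out arrays.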

Additional observations from a re-analysis of the deposited data

How the results depend on the processing

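The number of collagen genes at an unadjusted p under 0.05 in limma was 5 of 30, beside 4.68% of all tested probe sets. It was 8 with a replicate block, beside 18%, and 9 with array weights, beside 14.9%. With replicate 1 set as a block against the others it was 9, beside 21.0%. Without both replicate 1 arrays it was 5, beside 12.7%. The covariate of Y-linked genes gave 2, beside 2.91%. As each array was left out in turn it was between 2 and 4, beside 2.45% to 5.99%. Col11a1 and Col9a3 were the genes kept with the covariate of Y-linked genes and in all 6 fits that leave out 1 array. The replicate block ended no call and added no adjusted one. The block for replicate 1, the quantile normalization and leaving out both replicate 1 arrays were chosen after seeing the data. Of the 30 tested genes 14 kept their sign under all 18 alternatives and 16 turned in at least 1. Some of the 18 could not turn a sign. The blocks, the filters on the mean and leaving out probe sets named x_at or s_at do not change the difference of a tested collagen gene. Col25a1 was 0.0033 after median centring. Cyclic loess gave -0.023 for Col14a1, -0.0405 for Col23a1 and -0.044 for Col27a1, and quantile normalization gave -0.027, -0.051 and -0.05 for the same genes. Averaging probe sets gave 0.033 for Col4a6 and -0.048 for Col14a1. Array weights gave -0.0097 for Col9a2, -0.041 for Col14a1 and -0.093 for Col27a1. The covariate of Y-linked genes gave -0.038 for Col5a1, -0.13 for Col6a1, -0.28 for Col6a2, -0.16 for Col6a3, -0.0042 for Col9a2, -0.15 for Col14a1, -0.032 for Col16a1 and -0.056 for Col23a1. Without both replicate 1 arrays Col9a2 was -0.01, Col14a1 -0.015, Col25a1 0.005 and Col27a1 -0.085. As each array was left out, values ran from -0.068 to 0.287 for Col6a1, -0.158 to 0.305 for Col6a2, -0.087 to 0.233 for Col6a3, -0.112 to 0.318 for Col9a2, -0.112 to 0.133 for Col14a1, -0.075 to 0.093 for Col23a1, -0.212 to 0.02 for Col15a1, -0.162 to 0.163 for Col25a1, -0.252 to 0.178 for Col27a1, -0.102 to 0.0083 for Col4a1, -0.17 to 0.005 for Col4a2, -0.36 to 0.088 for Col1a1 and -0.097 to 0.023 for Col2a1. The cause of these changes was not tested. With 3 arrays a genotype, differences of the size seen at most collagen genes lie within the spread. The dim genes Col5a3 and Col11a2 were left untested because of the limit of 5, and no result is drawn from them. For Col11a2 the albino arrays (4.23 to 4.43) lay below the pigmented arrays (4.51 to 4.60). Without the filter the fibrillar genes split into 5 higher and 5 lower, with a median difference of -0.02.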

Other observations

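The array also carried 10 collagen genes outside the list, 6 of them with a mean of at least 5. Col17a1, whose transmembrane chain anchors epithelial cells at hemidesmosomes, had 7.54, 7.24 and 7.07 in albino pools, against 6.89, 6.58 and 7.09 in pigmented pools, a difference of 0.43. The groups overlapped at replicate 3. Col7a1, of the anchoring fibrils under stratified epithelia, had 7.58, 7.49 and 7.34 in albino pools, against 7.84, 7.48 and 7.68 in pigmented pools, a difference of -0.20 on the other side. Col22a1, known from tissue junctions such as that of muscle and tendon, had 5.73, 5.24 and 4.90 in albino pools, against 4.98, 4.42 and 4.77 in pigmented pools, a difference of 0.57 that overlapped at 4.90 and 4.98. Col26a1 differed by 0.19, with 8.82 to 9.01 in albino pools and 8.59 to 8.80 in pigmented pools. Col20a1 and Col24a1 differed by 0.0067 and 0.013. Col10a1, Col19a1, Col6a4 and Col6a5 had means below 5.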
